A study of Mus musculus with 6 samples.

Results

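Olfactory receptors are the largest family of G protein-coupled receptors in the mouse, and their genes, named Olfr in these files, were the ones examined here in renal cortex. An olfactory receptor probe was taken as detected when its spot was well above background, by the flag of the scanning software, on every one of 6 arrays. Of the 1127 probes with an Olfr name on the array, which cover 1086 genes, 59 probes met this rule, each for a different gene, or 5.24%. Over all 56605 probes of the array that are not controls, 31711, or 56%, met it. The members were selected on their detection flags and ranked by signal on these same arrays, so detection and level are described here without a test.

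Each olfactory sensory neuron of the nose expresses a single receptor gene, and the receptor couples through the olfactory G protein and adenylyl cyclase to a cyclic nucleotide-gated channel. The genes stand in clusters on many chromosomes and have a coding region without introns. They are divided into class I receptors, which in the mouse share 1 cluster on chromosome 7 and include receptors for short carboxylic acids, and the more numerous class II receptors. Some are also transcribed outside the nose, and in kidney Olfr78, a receptor for short-chain fatty acids, has been tied to renin release.

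The RNA came from renal cortex of male C57BL/6 mice. All of them were diabetic: per the labels, they began a diet with 60% of calories from fat at 8 weeks of age, received streptozotocin, a toxin of the pancreatic beta cells, at 60 mg/kg on each of 3 days after 4 weeks of that diet, and were killed 26 weeks later. WT diabetic (3 arrays) and C3aR-/- diabetic (3 arrays), which lack the receptor for the complement fragment C3a, were the groups compared, and the sources used here do not say how the deletion was made. Non-diabetic mice were not analysed here, and nothing in the labels says that replicates were separate animals, so p-values reflect the spread among these 6 samples, which may be technical. The 6 arrays lay on 1 slide, with between 58.6% and 63.0% of probes well above background on each, and correlated with each other at 0.980 to 0.994. C3ar1, the gene of the C3a receptor, differed by -1.10 ± 0.30 (limma standard error) on the log2 scale (limma adjusted p = 0.947). On the scale described below it read -2.96, -3.86 and -3.62 in WT and -4.10, -4.95 and -4.69 in C3aR-/-. Its probe was well above background on 5 arrays, so it still gave signal in C3aR-/- samples. All 14 renal cortex markers examined were well above background on all 6 arrays. Fewer cells of a type and less RNA per cell cannot be told apart in such bulk samples.

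Levels below are log2 signals relative to the 75th percentile of the same array, so that 0 is a bright probe. A signal depends on how well the 60-base probe binds its target as well as on the amount of RNA, so the ranking of the probes is an order of signals and not of transcript abundance. The members stood low on this scale: their median level was -3.71, against -0.48 over all probes well above background on all 6 arrays. Only Olfr544 and Olfr571 exceeded 0, 11 members exceeded -2, 6 lay between -2 and -3, and 42 lay below -3.

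Probe sequences are shown for the members on which the results turn: 5 of the brightest, and those of lower signal whose partner probe gives a comparison. RefSeq gene models of GRCm38.p6 were taken to have no untranslated part from their length alone. That length had to be a whole number of codons in the range of a receptor coding region. Each sequence lies within such a model and is placed on mm9 as the files give it. Each was taken as coding sequence on the sense strand. The first of them lie at chr7:110058002-110058061 (minus strand, Olfr571), chr14:51238494-51238553 (plus strand, Olfr744), chr15:98328602-98328661 (plus strand, Olfr279), chr2:89122461-89122520 (minus strand, Olfr1229) and chr8:74624499-74624558 (plus strand, Olfr373), and read 5′ to 3′:
Olfr571: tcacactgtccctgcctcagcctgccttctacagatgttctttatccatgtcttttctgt
Olfr744: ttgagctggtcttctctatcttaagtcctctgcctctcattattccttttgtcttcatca
Olfr279: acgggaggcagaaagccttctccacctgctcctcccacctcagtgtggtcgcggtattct
Olfr1229: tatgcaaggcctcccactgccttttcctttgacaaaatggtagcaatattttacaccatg
Olfr373: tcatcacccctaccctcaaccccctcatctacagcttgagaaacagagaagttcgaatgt

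Of the 59 member probes, 40 lay inside such a coding model and 39 of these kept an open reading frame. Over all 1127 Olfr probes, 804 lay inside one and 697 of these kept an open reading frame. The probe of Olfr544 did not lie inside such a model, and its sequence is not shown. The same holds for Olfr722, Olfr1443, Olfr287, Olfr558, Olfr124, Olfr1115, Olfr521, Olfr147, Olfr1033 and Olfr524, which are described below.

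Olfr544, a class I receptor known to respond to azelaic acid, was the brightest member. Its levels were 1.43, 1.48 and 1.46 in WT and 1.49, 1.54 and 1.40 in C3aR-/-, which made it the steadiest of the 59 (SD over 6 arrays 0.052). Olfr571, also of the class I cluster, gave 0.85, 1.02 and 0.98 in WT and 1.06, 1.15 and 0.97 in C3aR-/-. They ranked first and second on every array. The groups overlapped in each, and the differences were 0.020 ± 0.099 and 0.11 ± 0.11.

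The other 8 of the brightest 10 were class II receptors on 6 chromosomes. Olfr744 read -0.34, -0.053 and -0.049 in WT and 0.19, 0.19 and -0.33 in C3aR-/-. Olfr722, from the same cluster on chromosome 14, read -0.22, -0.15 and -0.13 in WT and -0.47, -0.057 and -0.37 in C3aR-/-. These neighbours in rank exchanged places on 1 array. Olfr279 read -0.62, -0.52 and -0.70 against -0.47, -0.62 and -0.69, and Olfr1229 read -0.70, -0.81 and -0.65 against -1.09, -1.04 and -0.84. Olfr1229 was the one bright member whose groups did not overlap, with all C3aR-/- arrays lower (-0.27 ± 0.12). The remaining 4 were Olfr373 (mean level -1.31, SD 0.13 over 6 arrays), Olfr1368 (-1.50, SD 0.21), Olfr1153 (-1.77, SD 0.43) and Olfr430 (-1.79, SD 0.29). Ranked by mean signal in place of mean log2 level, Olfr1443 takes the tenth place from Olfr430.

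Below the first few places the order was not fixed. Only 6 of 58 neighbouring pairs in the ranking kept their order on all 6 arrays, among them Olfr544 above Olfr571 and Olfr571 above Olfr744, and the median step between neighbours was 0.040 against a median SD over arrays of 0.24. The members between -2 and -3 were Olfr570, Olfr287, Olfr1252, Olfr553, Olfr1402 and Olfr319. Those below -3 that are not described singly were Olfr1466, Olfr549, Olfr187, Olfr1347, Olfr6, Olfr149, Olfr609, Olfr469, Olfr1263, Olfr629, Olfr398, Olfr1008, Olfr1410, Olfr96, Olfr482, Olfr885, Olfr139, Olfr1349, Olfr1342, Olfr1350, Olfr1444, Olfr1131, Olfr297, Olfr914, Olfr414 and Olfr700.

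**Figure D1:**
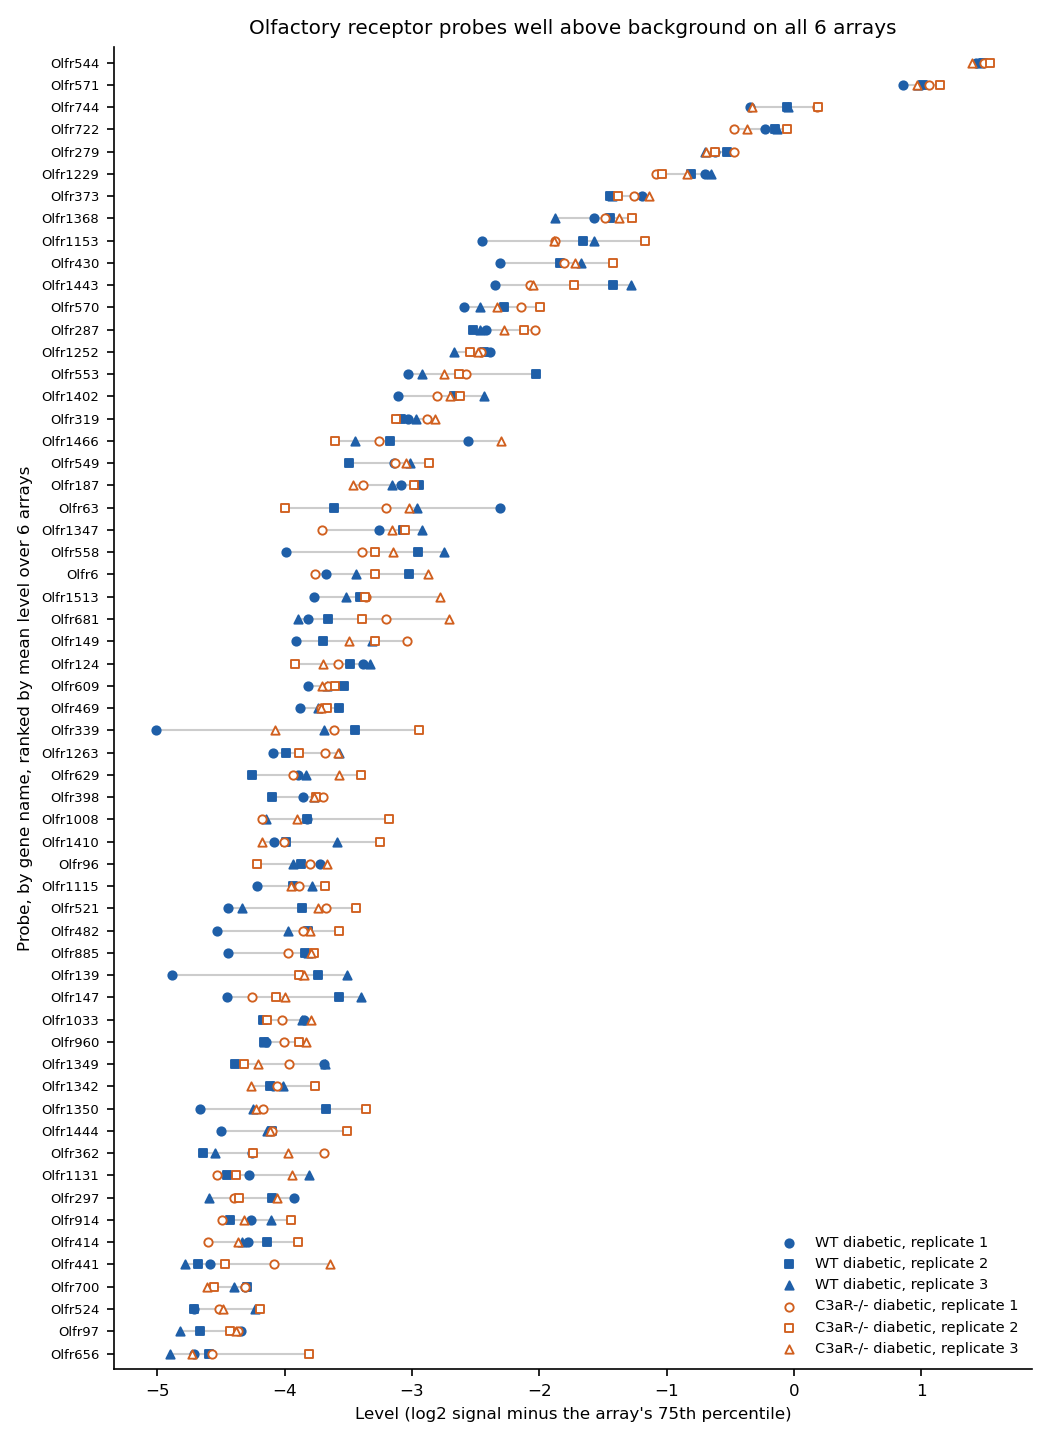
The 59 olfactory receptor probes are ranked from top to bottom by mean level, with the level on each of 6 arrays (log2 signal minus the array's 75th percentile) on the horizontal axis, filled symbols for WT, open symbols for C3aR-/- and a grey line for the range. Olfr544 and Olfr571 stand above 0, 42 probes lie below -3, and Olfr339 spans the widest range.

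Most of the family was not detected in this tissue by this rule. Of the 1127 olfactory receptor probes, 913 (81.0%) were well above background on no array, 109 on 1, 18 on 2, 11 on 3, 9 on 4 and 8 on 5. Single arrays had between 89 and 120 such probes above background. The 308 spots of the array's negative control, which carry 1 probe, serve as the background measure: none was well above background on all 6 arrays, and 22 (7.14%) were on at least 1.

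The edge of the rule falls at low signals. The dimmest members were Olfr524, Olfr97 and Olfr656, at mean levels of -4.47, -4.50 and -4.55. The brightest probes that met the rule on 5 arrays were Olfr1500, Olfr56 and Olfr738, at -4.28, -4.41 and -4.50, so the sets on both sides of the rule overlap in level. The lowest signal called well above background was between 15.5 and 24.2 units on the different arrays, and the dimmest member signal was 20.4 units. On WT replicate 2 the 99th percentile of the negative control spots was 54.8 units, higher than on the others, and 29 members exceeded it there, against 57 to 59 on each other array.

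Receptors described earlier in kidney were mostly at or below this edge. The Olfr78 probe was well above background on 1 array, C3aR-/- replicate 1. Its signals were 3.79, 11.96 and 14.1 units in WT and 25.5, 16.7 and 16.8 units in C3aR-/-. These did not overlap. The probe was not among those tested, of which 5.56% were higher in C3aR-/- without overlap. The WT replicate 1 signal lay at the negative control median of its array (3.74 units). On every array but C3aR-/- replicate 1 the signal was below the lowest called well above background there (16.1 to 24.2 units). The lack of overlap is thus mostly between values that were not detected. The RefSeq model of Olfr78 overlaps that of Olfr560, and the probe did not lie inside a coding model. Olfr1393, a receptor of the proximal tubule linked to glucose handling, was well above background on 4 arrays, with signals of 21.5, 22.7 and 21.4 units in WT and 27.9, 37.0 and 19.01 units in C3aR-/-. Olfr1392 passed on 5 arrays, with 29.3, 22.4 and 19.5 units in WT and 29.5, 24.5 and 31.1 units in C3aR-/-. Its groups did not overlap on the scaled levels, and the difference was 0.38 ± 0.13 (limma adjusted p = 0.947). Olfr90 passed on none, and no probe on the array carries the name Olfr1373. Olfr558, a class I receptor for short branched acids, was a member at rank 23, with -3.99, -2.95 and -2.74 in WT and -3.39, -3.29 and -3.15 in C3aR-/-.

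Members came from 24 of 48 clusters of olfactory receptor probes (split where neighbours stood over 1 Mb apart on mm9) and from 15 of 17 chromosomes with such probes. The class I cluster at chr7:109625402-112517423 held 127 probes and 10 members (7.87%): Olfr544, Olfr549, Olfr553, Olfr558, Olfr570, Olfr571, Olfr609, Olfr629, Olfr656 and Olfr681. Outside it 49 of 993 placed probes (4.93%) were members. The largest cluster, on chromosome 2 with 226 probes, held 8 members (3.54%), and none of the 67 probes on chromosome 10 was a member.

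Detection went with the base composition of the probe. The median GC content was 45% in members and 40% in the other olfactory receptor probes. Of olfactory receptor probes with under 40% GC, 8 of 447 (1.79%) were members, then 14 of 347 (4.03%) from 40% to under 45%, 23 of 271 (8.49%) from 45% to under 50%, and 14 of 62 (22.6%) at 50% and over. Over all probes of the array the same classes gave 53.8%, 55.2%, 55.9% and 62.2%, a much flatter course. The part of base composition in the detection of these receptors was not tested.

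**Figure D2:**
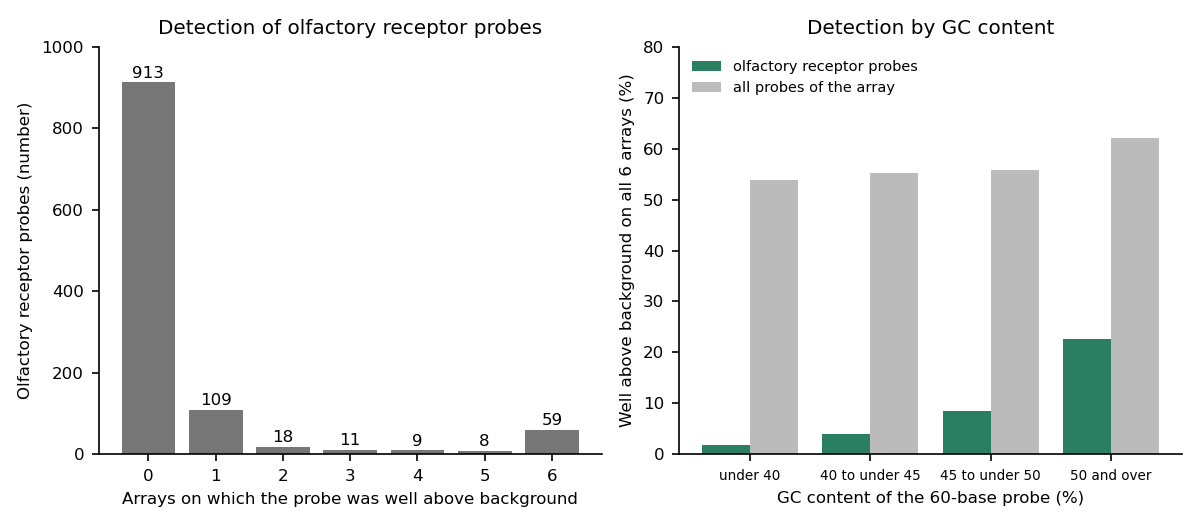
The left panel gives the number of olfactory receptor probes by the number of arrays on which they were well above background. The right panel gives the share well above background on all 6 arrays by GC content of the probe, which goes from 1.79% to 22.6% for olfactory receptor probes and from 53.8% to 62.2% for all probes.

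Other chemosensory receptor families were detected at differing shares. Well above background on all 6 arrays were 9 of 170 probes for vomeronasal type 1 receptors (5.29%), 7 of 112 for vomeronasal type 2 receptors (6.25%), 2 of 35 for bitter taste receptors (5.71%) 0 of 14 for trace amine-associated receptors, 3 of 4 for sweet and umami taste receptors (75%) and 1 of 7 for formyl peptide receptors (14.3%). The first 3 of these shares lie near the 5.24% of the Olfr probes, and the other families have few probes.

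Few member genes had a second probe to set beside the first. Of 41 olfactory receptor genes with 2 probes, none had both well above background on all 6 arrays, 28 had neither on any array, and 2, Olfr681 and Olfr1115, had one on all 6 and the other on none. The probes of Olfr681 start 80 bases apart in its coding sequence, at chr7:112270777-112270836 and chr7:112270857-112270916 on the plus strand, and read:
Olfr681, first probe: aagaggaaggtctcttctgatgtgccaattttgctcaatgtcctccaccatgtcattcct
Olfr681, second probe: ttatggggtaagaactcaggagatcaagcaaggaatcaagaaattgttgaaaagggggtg

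The first probe gave signals of 49.5, 53.1 and 41.1 units in WT and 69.6, 51.8 and 99.9 units in C3aR-/-. The second gave 3.72, 4.92 and 3.33 units in WT and 3.20, 4.08 and 3.82 units in C3aR-/-, at the median of the negative control spots, which lay between 3.13 and 5.005 units. The probes thus disagree on whether Olfr681 is detected, and its difference between genotypes rests on the first alone. The second probe of Olfr1115 likewise had a mean level of -7.33, against -3.91 for the first.

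Member probes resembled other probes of the array no more than the rest of the family. An exact run of 20 or more bases shared with a probe of another gene was found in 4 of 59 members (6.78%) and in 132 of the 1068 other olfactory receptor probes (12.4%), and no member shared 30. The longest run, 26 bases, joined Olfr441 (chr6:43066012-43066071, plus strand) to its neighbour Olfr444 (chr6:42905768-42905827, plus strand), here in capitals:
Olfr441: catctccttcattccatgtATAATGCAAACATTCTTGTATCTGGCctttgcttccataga
Olfr444: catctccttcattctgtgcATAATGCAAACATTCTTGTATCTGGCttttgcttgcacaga

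The Olfr444 probe, which differs from that of Olfr441 only outside the run, was well above background on no array (mean level -7.39), while the Olfr441 probe was on all (mean level -4.37). A like contrast was seen for Olfr1033 (-3.97) and Olfr1032 (-7.38), whose probes share 21 bases. Transcripts for which the array carries no probe were not examined.

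**Figure D3:**
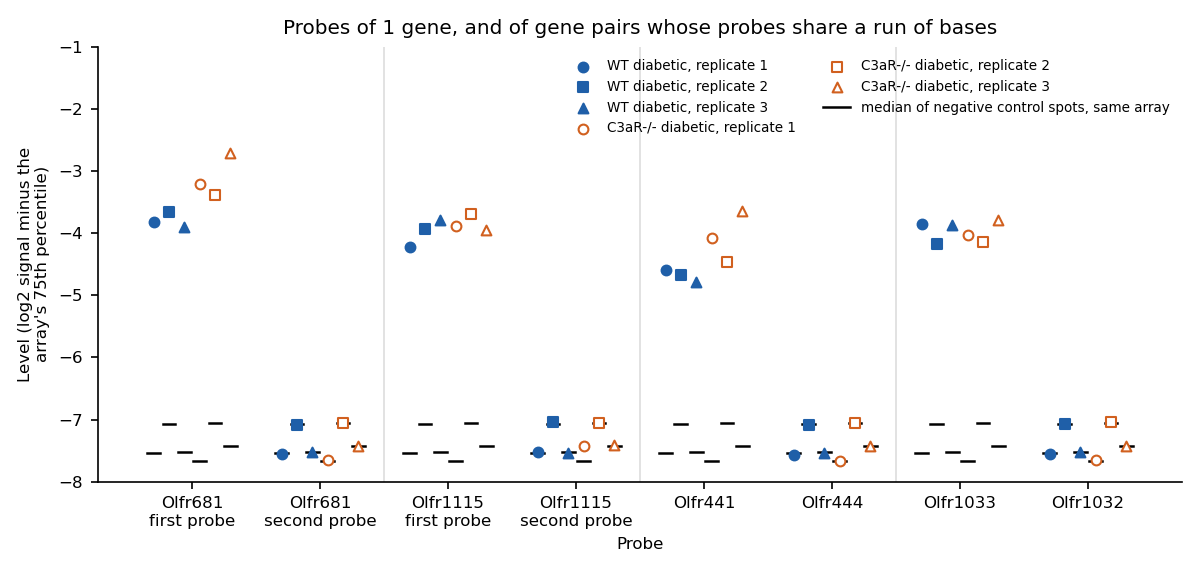
Levels on each of 6 arrays (log2 signal minus the array's 75th percentile) are drawn for both probes of Olfr681 and of Olfr1115 and for probes of different genes that share 26 bases (Olfr441, Olfr444) or 21 bases (Olfr1033, Olfr1032), with black bars at the median negative control spot of the same array. In each pair one probe lies between -5 and -2 and the other at or near the bars.

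The design compares diabetic C3aR-/- with diabetic WT cortex, and between these the detected olfactory receptors differed little. In limma with Benjamini-Hochberg adjustment over 34778 probes, 0 of 59 members and 0 probes of all tested (0%) passed an adjusted p of 0.05, and the lowest adjusted p of a member was 0.947. At an unadjusted p under 0.05 there were 7 of 59 members (11.9%), against 4.68% of all probes tested, 6 of them higher in C3aR-/- (against 2.16% of all probes) and 1 lower (against 2.52%). Without Olfr681, which was singled out for its difference, it was 6 of 58 (10.3%). The count moved from 3 to 9 as single arrays were left out: 3 without WT replicate 3 and 4 without each of WT replicate 2, C3aR-/- replicate 1 and C3aR-/- replicate 3. It was 4 with trend and robust variances and 12 with array weights, a setting in which 10.5% of all probes passed.

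The sizes were small. Every member differed by under 1 on the log2 scale, and 54 of 59 by under 0.5, with a median limma standard error of 0.18. C3aR-/- was higher in 43 members (72.9%) and lower in 16, against 56.1% higher of all probes tested, and the median difference was 0.097, against 0.025. Among the 11 members above -2 in level the differences ran from -0.27 to 0.29, and none had an unadjusted p under 0.05. Among the 42 below -3, where the SD over arrays was larger (median 0.29 against 0.18), they ran from -0.44 to 0.69. In the class I cluster 9 of 10 members were higher in C3aR-/- (median 0.15), and outside it 34 of 49 (median 0.086).

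Olfr681 had the largest positive difference. Its first probe gave levels of -3.81, -3.66 and -3.89 in WT and -3.20, -3.39 and -2.71 in C3aR-/-, so every C3aR-/- array stood above every WT array. The difference was 0.69 ± 0.19, or 1.61 times the WT level, and from 0.49 (without C3aR-/- replicate 3) to 0.83 (without C3aR-/- replicate 2) as single arrays were left out. It was 0.38 with normexp background correction, an alternative that adds an offset of 50 units to every corrected signal. No p is given, since the gene was picked for this difference.

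Olfr441, on chromosome 6, read -4.58, -4.68 and -4.78 in WT and -4.08, -4.47 and -3.64 in C3aR-/-. The groups did not overlap, and the difference of 0.62 ± 0.21 (limma adjusted p = 0.947) became 0.41 without C3aR-/- replicate 3, 0.82 without C3aR-/- replicate 2 and 0.23 with normexp. Olfr521, on chromosome 7 outside the class I cluster, read -4.44, -3.86 and -4.33 in WT and -3.67, -3.44 and -3.74 in C3aR-/-. It too was higher on every C3aR-/- array, by 0.60 ± 0.18 (limma adjusted p = 0.947), by 0.39 with both WT replicate 1 and C3aR-/- replicate 2 left out, by 0.36 with array weights and by 0.25 with normexp. Olfr362 read -4.25, -4.64 and -4.55 in WT and -3.69, -4.25 and -3.97 in C3aR-/-, a difference of 0.51 ± 0.18 (limma adjusted p = 0.947), or 0.23 with normexp. Its highest WT and lowest C3aR-/- arrays all but met.

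Among members with tighter replicates, Olfr287 gave -2.42, -2.52 and -2.47 in WT and -2.04, -2.12 and -2.28 in C3aR-/-, a difference of 0.33 ± 0.11. Olfr960 gave -4.15, -4.16 and -4.16 in WT and -4.01, -3.89 and -3.83 in C3aR-/-, a difference of 0.25 ± 0.10. Neither overlapped between groups, and both had a limma adjusted p of 0.947. Olfr1513 was the other member higher on every C3aR-/- array (0.40 ± 0.20, limma adjusted p = 0.947). That made 7 members without overlap and higher in C3aR-/- (11.9%), against 5.56% of all probes tested.

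In the other direction Olfr124 read -3.38, -3.49 and -3.33 in WT and -3.58, -3.92 and -3.70 in C3aR-/-, lower on every C3aR-/- array. Its difference was -0.33 ± 0.13 (limma adjusted p = 0.947). With normexp it was -0.082 and no longer had an unadjusted p under 0.05. With Olfr1229 it was 1 of 2 members without overlap and lower (3.39%), against 4.02% of all probes tested. The largest negative difference belonged to Olfr63, with -2.30, -3.61 and -2.96 in WT and -3.20, -3.99 and -3.02 in C3aR-/-. Its groups overlapped widely, and its difference of -0.44 ± 0.39 became -0.12 once WT replicate 1 was left out, -0.15 once C3aR-/- replicate 2 was, and 0.18 with neither of them, but -0.77 without WT replicate 2. It was -0.64 without C3aR-/- replicate 3 and -0.24 with normexp. Olfr147 (-0.30 ± 0.28) and Olfr1443 (-0.27 ± 0.29) were also lower with overlapping groups, and ran from -0.62 and -0.60 without WT replicate 1 to -0.095 and -0.064 without WT replicate 3 (-0.18 and -0.14 without WT replicate 2). With normexp background correction they were -0.085 and -0.17.

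**Figure D4:**
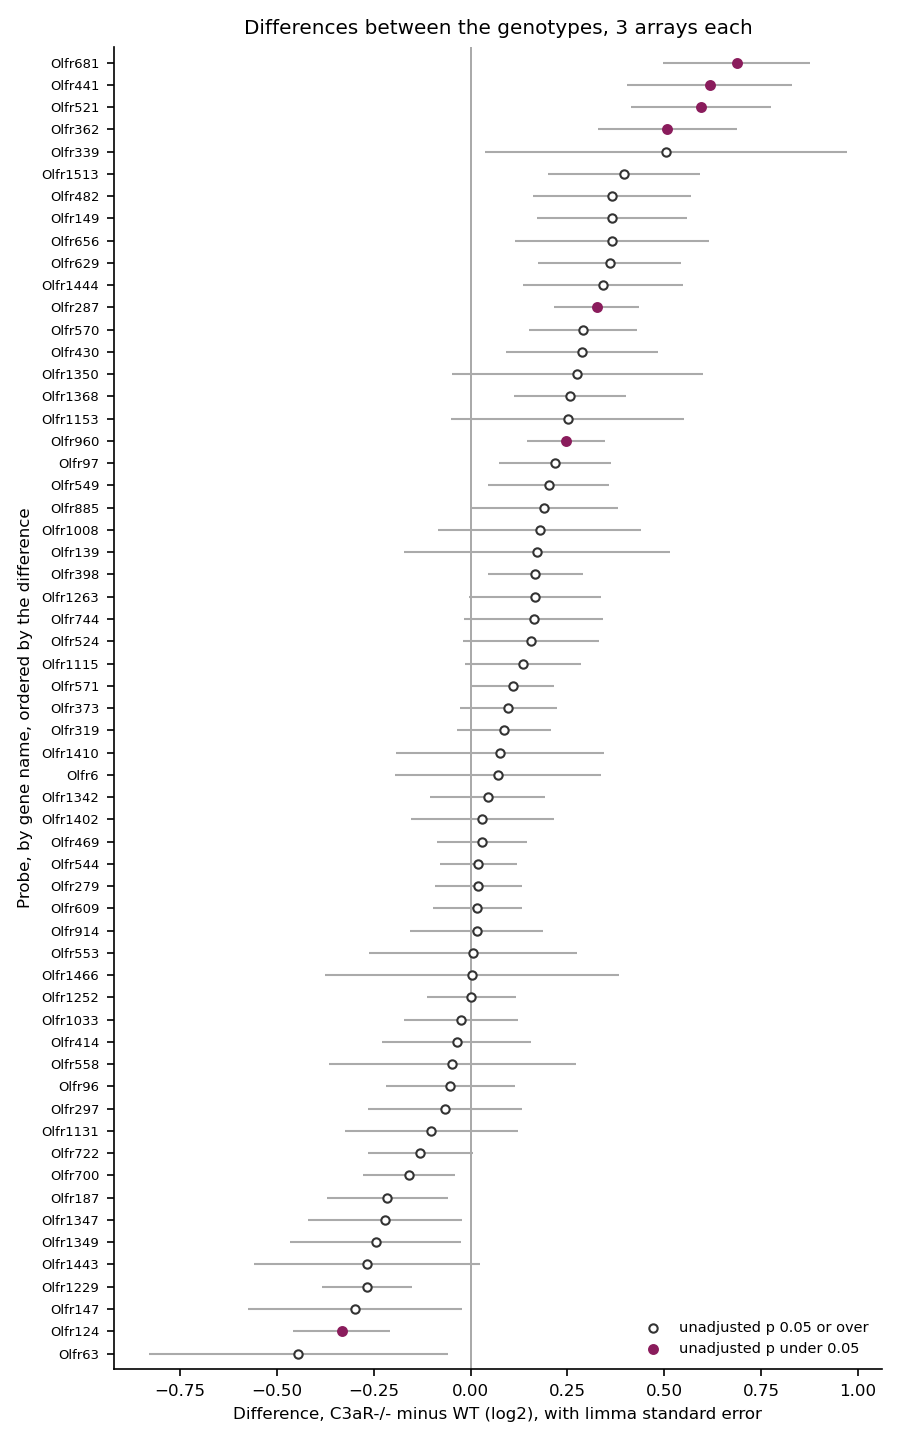
Differences between C3aR-/- and WT (log2, 3 arrays each) are drawn for the 59 probes from the most positive to the most negative, with bars of 1 limma standard error and filled points for an unadjusted p under 0.05. The points run from 0.69 for Olfr681 to -0.44 for Olfr63, 43 lie above 0, and no member passed the adjusted threshold.

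The excess of higher members was not seen without a pair of arrays. C3aR-/- replicate 2 was the highest of the 6 arrays for 24 of 59 members (40.7%, against 26.0% of all probes well above background on 6 arrays), and WT replicate 1 was the lowest for 24 (40.7%, against 30.5%). Both held for 13 members: Olfr571, Olfr744, Olfr1153, Olfr430, Olfr570, Olfr339, Olfr1115, Olfr521, Olfr482, Olfr885, Olfr1350, Olfr1444 and Olfr524. Olfr63 alone had the reverse. Without both arrays 28 of 59 members were higher in C3aR-/- and their median difference was -0.021, against 0.019 over all probes tested. Without WT replicate 1 alone 37 were higher and the median was 0.033, against 0.023. Leaving out arrays that are often lowest in WT or highest in C3aR-/- lowers these differences by construction. The part of these arrays in the excess was therefore not tested.

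Olfr339 shows the pattern at its widest. Its levels were -5.01, -3.45 and -3.69 in WT and -3.62, -2.94 and -4.08 in C3aR-/-. Its difference of 0.51 ± 0.47 fell to 0.024 once WT replicate 1 was left out, to 0.20 once C3aR-/- replicate 2 was, and to -0.28 with neither of them. Leaving out WT replicate 2 raised it to 0.80 and leaving out C3aR-/- replicate 3 to 0.77, and with normexp it was 0.24. The same arrays were the extremes of the main axis of variation over all probes (first principal component, 41.3% of the variance). Slc34a1, the phosphate transporter of the proximal tubule, named after its values were seen, read 5.80, 7.36 and 7.10 in WT and 7.19, 7.79 and 6.95 in C3aR-/-, lowest and highest on the same arrays. The summed level of the 14 renal cortex markers (log2 of their summed scaled signals) ran from 9.35 to 9.99 in WT and from 9.90 to 10.3 in C3aR-/-, and that of 5 red cell genes from 7.44 to 8.77 and from 8.60 to 9.34. Their part in the members' differences was not tested.

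**Figure D5:**
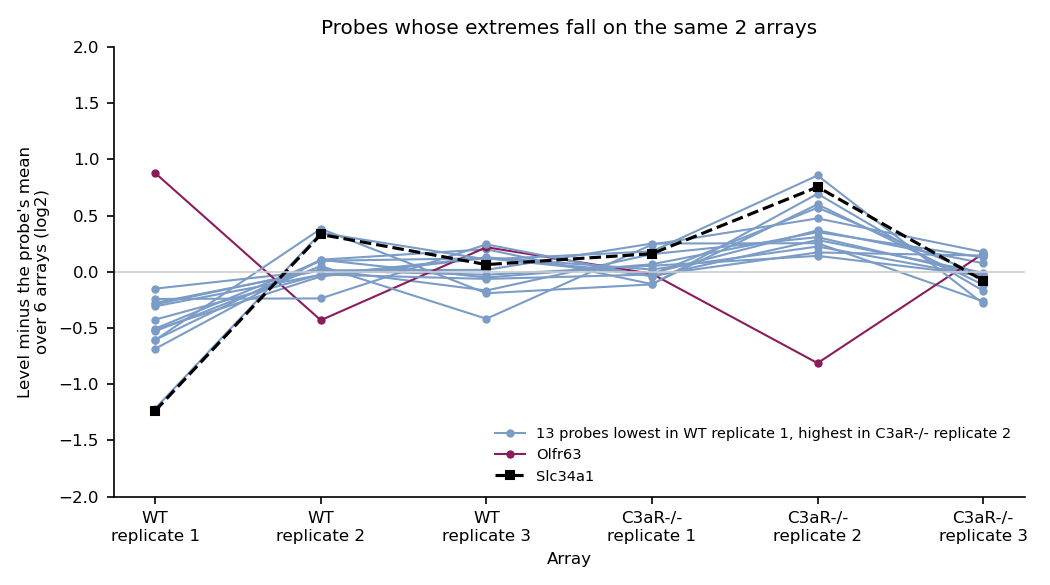
Levels relative to each probe's own mean over 6 arrays (log2) are drawn by array for the 13 olfactory receptor probes lowest in WT replicate 1 and highest in C3aR-/- replicate 2, for Olfr63, which runs the other way, and for Slc34a1 (dashed). Lines join values of 1 probe and imply no order of replicates.

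Genes that serve these receptors in the nose were examined beside them. Of 18 olfactory transduction genes on the array, 11 had their brightest probe well above background on all 6 arrays, where 56% of all single probes were. They include widely expressed genes such as Gnas, Gnb1, Slc12a2 and Rgs2 as well as Omp (mean level -2.83), a protein of mature olfactory neurons, Gnal (-3.26), the olfactory G protein subunit, and Cngb1 (-3.09), a channel subunit. The channel subunit Cnga4, the chloride channel Ano2, Slc24a4 and Stoml3 were on no array, the cyclase Adcy3 was on 1, Gng13 on 2 and the channel subunit Cnga2 on 4. Of the 10 marker genes of olfactory sensory neurons, 4 (Cnga4, Ano2, Stoml3 and Rtp1) were thus on none. The summed level of the 4 tested (Omp, Gnal, Cnga2 and Cngb1) ran from -1.39 to -1.27 in WT and from -1.41 to -1.28 in C3aR-/-. Among 6 markers of sperm and testis, another site where olfactory receptors are transcribed, Tnp1 (mean level -3.34) was the one well above background on all 6 arrays.

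None of the genes beside the receptors passed the adjusted threshold. In the transduction list 4 genes were higher and 8 lower in C3aR-/- (median -0.049), with 1 at an unadjusted p under 0.05, the arrestin Arrb2 (-0.35 ± 0.13). Of 12 tested genes for receptor trafficking 6 were higher and 6 lower (median -0.014), and those of smallest p were Rtp4 (-0.59 ± 0.33) and Reep6 (0.42 ± 0.28). Of 12 genes of receptor choice in olfactory neurons 5 were higher and 7 lower (median -0.041), with Lhx2, a homeobox factor, at -0.53 ± 0.21. Among 3 tested genes of odorant binding and nasal secretion, Obp1a, an odorant-binding protein, read -3.11, -3.14 and -3.12 in WT and -2.76, -2.84 and -2.82 in C3aR-/- (0.32 ± 0.095). Beside Olfr78, the fatty acid receptor Ffar2 differed by -1.06 ± 0.37 and renin, Ren1, by -0.41 ± 0.35. Ffar2 was well above background on 4 arrays only, so its difference lies near the detection limit. Its levels were -4.19, -4.12 and -3.69 in WT and -5.35, -5.64 and -4.21 in C3aR-/-. Ffar2 is known from leukocytes, and 11 of 13 leukocyte markers tested were lower in C3aR-/-, against 56.1% higher of all probes tested. Ptprc (0.088) and Itgam (0.24) were higher. The summed level of the markers ran from 6.02 to 6.54 in WT and from 5.58 to 5.99 in C3aR-/-. The part of leukocytes in the Ffar2 difference was not tested.

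Overlap with another gene touched 1 member. The RefSeq model of Olfr524 overlaps that of Cd163l1, a scavenger receptor of leukocytes. Olfr524 read -4.71, -4.71 and -4.23 in WT and -4.52, -4.19 and -4.48 in C3aR-/- (0.16 ± 0.18), whereas Cd163l1 differed by -1.47 ± 0.32. Whether these differences differ from each other was not tested.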

How the data were processed

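RNA was measured on 6 1-colour Agilent arrays (Cy3, 0.2 µg RNA per the labels). The deposited intensity values are the processed signals of Agilent Feature Extraction 10.7.1.1 (per the submitters' processing notes), background-subtracted per the file headers and not normalized between arrays. The authors' deposited table of log2 values served as an alternative: its columns hold the same sorted values within 0.000865, with a median of 5.73, and the sources used here name no tool for it. A probe is called well above background from a multiple of the background spread set in the scanner software, per the file headers.

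Control and outlier spots were left out, which dropped 6 probes, none of them an olfactory receptor, and no probe was saturated. Levels are log2 signal minus each array's 75th percentile. The 34778 probes well above background on at least 3 arrays were fitted in limma 3.58.1 (lmFit, eBayes; R 4.3.3) as C3aR-/- minus WT, with Benjamini-Hochberg adjustment. The fit was tested on simulated data drawn independently for each probe and array. Such data cannot speak to variation shared across probes, as along the first principal component. The number of arrays limits the precision. Each olfactory receptor probe had 1 spot. Scanner positions are on mm9. RefSeq gene models of GRCm38.p6 served for coding checks and overlaps only.

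The members and gene lists were chosen with earlier results of these data known. Named were the 10 brightest members, Olfr681, kidney receptors of earlier literature, the 5 largest differences in each direction, members with an unadjusted p under 0.05, those at the edge of detection, those overlapping another gene, and in each pathway list the genes with an unadjusted p under 0.05, or otherwise the 2 of smallest p. Alternatives were other scalings, normexp with an offset of 50, filters, 1 probe per gene, variance models, array weights, blocks, detection rules and leaving out arrays.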

Additional observations from a re-analysis of the deposited data

How the results depend on the processing

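Of 12 members followed singly, Olfr63 and Olfr339 changed direction: with array weights they differed by 0.11 and -0.028, and without both WT replicate 1 and C3aR-/- replicate 2 by 0.18 and -0.28. Without those arrays the median member difference was -0.021, against 0.097. That median ran from 0.033 to 0.15 as single arrays were left out. The number of members with an unadjusted p under 0.05 was 7 (4.68% of all probes tested). It ran from 3 without WT replicate 3 (4.10%) to 9 without WT replicate 1 (4.92%). With normexp and an offset of 50 all 12 kept their direction, but dim members differed less: Olfr681 by 0.38, Olfr521 by 0.25, Olfr441 and Olfr362 by 0.23, and Olfr124 by -0.082. The number with an unadjusted p under 0.05 was 4 with trend and robust variances (4.12% of all probes tested) and 12 with array weights (10.5%). The number of detected receptors was 167 when spots had only to be positive and significant against background, which 67.3% of all probes were, 28 above the 99th percentile of negative control spots, and from 59 to 63 when single arrays were left out. The 28 turned largely on WT replicate 2, where 29 members exceeded that percentile, against 57 to 59 on each other array. In no fit did a member pass an adjusted p of 0.05. Whether replicate numbers pair the samples was not settled. Deviations of same-numbered arrays correlated at 0.12, 0.37 and -0.079, and those of other pairs of arrays at -0.34 to 0.31. With 3 arrays per group these values cannot decide it. With the number as a replicate block, 6 members had an unadjusted p under 0.05, as did 6.49% of all probes tested. Of the members 0 passed an adjusted p of 0.05, and the median difference was 0.097. Ranked by the mean of linear signals, 21 members moved, by up to 3 places. With 3 arrays per group and median spot errors of 15.8% for the 10 dimmest members against 10.0% for the 10 brightest, small differences of dim receptors were not resolved.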
